A study of Mus musculus with 6 samples.

Results

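Small nucleolar RNAs (snoRNAs) and small Cajal body RNAs (scaRNAs) were examined in mouse neuromesodermal progenitors (NMPs) exposed to retinoic acid (RA). Every gene whose symbol starts with Snora, Snord or Scarna followed by a digit was taken, which gave 99 of the 20631 genes in the transcript tables. These comprised 34 H/ACA RNAs (Snora), 57 C/D RNAs (Snord) and 8 Cajal body RNAs (Scarna), each with 1 row. NMPs were derived from mouse embryonic stem cells, labelled as strain 129 R1 and described in the study's methods as C57BL/6, by 2 days with bFGF and 1 day with bFGF plus the WNT agonist CHIR99021. According to those methods bFGF and CHIR99021 were then withdrawn, and the cells stayed for 2 h in N2B27 medium without retinoids that contained DMSO, 25 nM RA or 1 µM RA. Each of the 3 conditions had 2 samples, which were separate dishes of cells, so p-values measure the spread between dishes. Total RNA was depleted of rRNA, fragmented, and sequenced as 50-base single-end reads.

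Both families of RNA act as guides that pair with other noncoding RNAs: C/D RNAs direct methylation of ribose and H/ACA RNAs direct the conversion of uridine to pseudouridine, mostly in rRNA. Cajal body RNAs carry one or both of these architectures and direct the same modifications in spliceosomal RNAs. In mammals most of these RNAs are cut out of introns of host genes, many of which encode ribosomal proteins and translation factors or are noncoding RNAs whose known product is the snoRNA.

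The libraries held between 31753556 and 42029348 estimated counts, and these 99 RNAs took 0.0551% to 0.0765% of them. The labelled cell type was checked against its markers: the mesodermal NMP factor T stood at 367 to 380 RPKM (reads per kilobase of transcript and per 1000000 mapped reads) in all 6 samples, Sox2 at 5.20 to 17.3 RPKM and Nkx1-2 at 38.9 to 81.2 RPKM, with the committed neural gene Sox1 at 0.180 to 0.245 RPKM. Nanog stood at 18.1 to 20.8 RPKM. The RA-responsive gene Cyp26a1 had a mean of 52.4 RPKM in DMSO, 178 RPKM at 25 nM and 278 RPKM at 1 µM. In bulk samples, fewer cells of a type and less RNA per cell cannot be told apart. Among the snoRNAs and scaRNAs, DMSO dish 2 stood high and 25 nM dish 2 stood low in most of the values that follow.

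The sequences of the RNAs to which the results refer most are given here as annotated by GENCODE on GRCm38 (mm10), 5′ to 3′ in DNA letters. In the C/D RNAs capitals mark the box C letters TGATGA, searched in the first 20 bases, and the box D letters CTGA, searched in the last 20 bases, on the strand of the RNA. Both were found in 38 of the 57 C/D RNAs (66.7%), in none of the 34 H/ACA RNAs and in 20.2% of the 1558 snoRNA and scaRNA genes of GENCODE. Box D letters, with or without box C letters, were found in 56 of the 57 C/D RNAs. Snord22, the C/D RNA with the most counts, held the box D letters only. Snord22 (chr19:8725866-8725991, plus strand) lies in an intron of the noncoding host Snhg1 and Snord17 (chr2:144265979-144266216, minus strand) in an intron of Snx5. Snord15a (chr7:99482785-99482932) and Snord15b (chr7:99479563-99479707) lie on the minus strand in different introns of Rps3, and were identical at 107 of 160 aligned columns (66.9%), with a longest shared run of 21 bases. Snord8 (chr14:52209785-52209894, minus strand) lies in an intron of Chd8 and Snord104 (chr11:106500993-106501062, plus strand) in no host gene of the tables or GENCODE.
Snord22: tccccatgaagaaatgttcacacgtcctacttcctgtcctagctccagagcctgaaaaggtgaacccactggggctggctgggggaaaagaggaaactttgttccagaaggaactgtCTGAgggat
Snord17: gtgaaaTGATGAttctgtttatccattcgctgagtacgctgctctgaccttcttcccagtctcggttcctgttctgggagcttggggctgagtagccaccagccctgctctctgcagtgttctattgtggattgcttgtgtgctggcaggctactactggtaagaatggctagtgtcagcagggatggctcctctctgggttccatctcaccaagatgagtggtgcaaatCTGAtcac
Snord15a: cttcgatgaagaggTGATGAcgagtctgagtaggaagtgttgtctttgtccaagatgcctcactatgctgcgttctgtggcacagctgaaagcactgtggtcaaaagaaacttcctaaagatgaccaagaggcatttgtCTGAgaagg
Snord15b: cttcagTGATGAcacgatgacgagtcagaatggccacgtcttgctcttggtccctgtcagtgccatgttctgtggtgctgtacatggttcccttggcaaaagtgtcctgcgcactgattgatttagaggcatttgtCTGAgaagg
Snord8: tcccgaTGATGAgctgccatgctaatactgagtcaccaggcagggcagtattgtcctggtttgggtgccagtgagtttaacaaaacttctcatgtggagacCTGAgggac
Snord104: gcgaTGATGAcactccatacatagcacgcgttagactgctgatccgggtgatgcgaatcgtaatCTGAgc

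In the H/ACA architecture capitals mark the letters ACA where 3 bases follow them to the annotated 3′ end. These were found in 28 of the 34 H/ACA RNAs (82.4%), in none of the C/D RNAs, in 2 of the 8 Cajal body RNAs and in 19.3% of the 1558 annotated genes. Snora78 (chr17:24719676-24719803, minus strand) lies within Snhg9 and opposite the ribosomal protein gene Rps2. Snora17 (chr2:26639190-26639321) and Snora43 (chr2:26637847-26637985), both on the minus strand within Snhg7, were identical at 100 of 147 aligned columns (68.0%). As annotated, Snora17 has no ACA at that distance from its end. Snora21 (chr11:97781639-97781775, minus strand) lies in an intron of Rpl23, Snora41 (chr1:63179004-63179135, plus strand) in an intron of Eef1b2, and the Cajal body RNA Scarna13 (chr12:105031075-105031349, minus strand) in an intron of Snhg10.
Snora78: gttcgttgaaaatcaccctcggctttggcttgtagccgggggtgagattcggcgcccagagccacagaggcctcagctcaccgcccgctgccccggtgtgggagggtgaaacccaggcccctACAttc
Snora17: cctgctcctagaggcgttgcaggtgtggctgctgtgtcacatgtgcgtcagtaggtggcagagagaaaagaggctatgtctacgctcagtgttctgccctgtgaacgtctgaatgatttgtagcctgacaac
Snora43: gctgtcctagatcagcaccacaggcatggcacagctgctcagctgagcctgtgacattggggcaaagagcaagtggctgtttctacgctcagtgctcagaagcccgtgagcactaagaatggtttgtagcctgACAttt
Snora21: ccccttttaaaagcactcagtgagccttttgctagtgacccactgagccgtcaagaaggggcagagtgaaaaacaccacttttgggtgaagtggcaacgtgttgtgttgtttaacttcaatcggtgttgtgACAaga
Snora41: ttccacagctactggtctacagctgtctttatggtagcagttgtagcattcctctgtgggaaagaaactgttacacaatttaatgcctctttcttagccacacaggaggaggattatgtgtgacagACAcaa
Scarna13: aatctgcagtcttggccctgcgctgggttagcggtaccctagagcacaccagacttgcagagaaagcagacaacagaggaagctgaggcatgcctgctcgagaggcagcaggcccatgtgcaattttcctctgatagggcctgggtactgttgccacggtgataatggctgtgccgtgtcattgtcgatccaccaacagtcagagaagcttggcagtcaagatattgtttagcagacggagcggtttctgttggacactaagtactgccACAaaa

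For some RNAs the row of the tables covered only part of the annotated RNA, which sets what the counts represent. This held, at under 80% of the annotated length, for 13 C/D, 4 H/ACA and 3 Cajal body RNAs. In the next sequences capitals mark the bases of the row. The row of Snora61 (chr4:132310240-132310369, plus strand, in an exon of Snhg12) spanned 62 of 130 bases. The rows of Scarna10, within Ncapd2, and of Scarna2, with no host gene, spanned 71 of 325 and 61 of 414 bases; their last 150 bases are shown (chr6:125186359-125186508 and chr3:108554338-108554487, both minus strand).
Snora61: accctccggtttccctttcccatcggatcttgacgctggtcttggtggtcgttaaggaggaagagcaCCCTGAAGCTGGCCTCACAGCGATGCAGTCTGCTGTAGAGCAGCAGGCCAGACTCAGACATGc
Scarna10: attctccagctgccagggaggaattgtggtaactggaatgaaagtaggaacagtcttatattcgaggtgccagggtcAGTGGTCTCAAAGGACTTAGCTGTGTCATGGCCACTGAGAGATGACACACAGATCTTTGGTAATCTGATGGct
Scarna2: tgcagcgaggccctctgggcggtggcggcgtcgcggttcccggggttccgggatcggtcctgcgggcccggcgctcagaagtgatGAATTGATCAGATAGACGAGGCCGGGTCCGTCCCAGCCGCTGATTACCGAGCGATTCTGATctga

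Whole 50-base windows were compared with all GENCODE transcripts, because reads from a copy cannot be told apart from those of the RNA. Of the 57 RNAs with over 60 counts, 9 shared a window with a gene elsewhere: Scarna17, Snora21, Snora26, Snora33, Snora41, Snora5c, Snora65, Snora75 and Snora81. Of these, Snora21 shared 2 of its 88 windows, Snora41 shared 29 of 83, and Scarna17 shared 21 of 30. In addition, 50 of the 99 RNAs, and 36 of the 57, shared a window with another transcript annotated at the same place and strand, often of the host gene. Among the 57, the only such transcript of Scarna13, Scarna3a and Snora34 was that of a microRNA gene. For 29 of the 57 this held for every window, among them Snord22 (77 of 77 in Snhg1), Snord15b (96 of 96 in Rps3) and Snora61 (81 of 81 in Snhg12). The values of all these RNAs are uncertain to the extent that reads of such transcripts were counted with them, which was not tested. Snora78, Snora23, Snord8, Snord35b and Snord4a lie opposite a gene of the other strand, and whether the counting used strand is not given in the sources used here.

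A first question was how many of these RNAs were measured at a usable depth. Summed over the 6 samples, 57 of the 99 RNAs (57.6%) exceeded 60 estimated counts, against 70.5% of all 30352 transcripts. The share was 29 of 34 (85.3%) for H/ACA RNAs, 22 of 57 (38.6%) for C/D RNAs and 6 of 8 (75%) for Cajal body RNAs. The median total was 505 counts for H/ACA, 36 for C/D and 1250 for Cajal body RNAs. Just inside and outside the threshold were Snord95 with 67 counts and Snord35b with 58. None was listed at exactly 0 throughout, although Snord45c totalled only 2.11e-07 estimated counts. The counts of 7 RNAs differed by over 0.001 from whole numbers in at least 1 sample (Scarna3a, Scarna3b, Scarna13, Snora24, Snora26, Snora34 and Snord7), the authors having estimated them by expectation-maximization over overlapping transcripts.

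Pooled over the classes, longer RNAs carried more counts. Of the 49 RNAs longer than 100 bases 38 exceeded 60 counts, against 19 of the 50 RNAs of 100 bases or fewer. Across the 99 genes, which are not independent replicates, annotated length and log2 total counts had a Pearson r of 0.57 and a Spearman rho of 0.53. Class and length overlap, because the C/D RNAs are the shortest: 8 C/D RNAs exceeded 100 bases, and 4 of these passed 60 counts. Within the 2 large classes the median annotated length did not differ between RNAs over 60 counts and the others. It was 80 and 80 bases for C/D and 132 and 132 for H/ACA RNAs, against 270 and 135 for the 8 Cajal body RNAs.

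**Figure D1:**
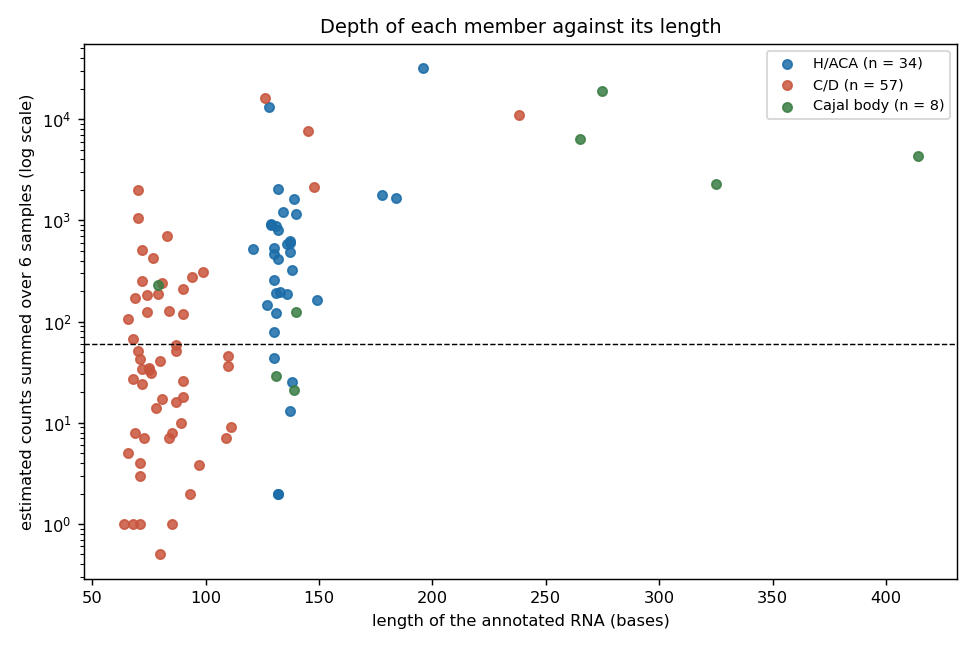
Estimated counts summed over the 6 samples (log axis, values under 0.5 drawn at 0.5) against the annotated length in bases, 1 point per RNA, coloured by class. The dashed line is 60 counts, which 29 H/ACA, 22 C/D and 6 Cajal body RNAs exceed, and most points under it are C/D RNAs of 100 bases or fewer.

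A few RNAs dominated each class. Snora74a supplied 49.7% of all H/ACA counts, Snord22 36.2% of the C/D counts and Scarna13 58.4% of the Cajal body counts. Per length, the most abundant H/ACA RNAs by mean RPKM over the 6 samples were Snora74a (599), Snora78 (317), Snora17 (58.1), Snora43 (43.5) and Snora81 (40.7). Among C/D RNAs these were Snord22 (487), Snord15b (197), Snord17 (187), Snord34 (114) and Snord15a (54.1). Snord15a, Snord15b and Snord34 are guides for methylation of large-subunit rRNA. Among Cajal body RNAs they were Scarna2 (265), Scarna13 (256), Scarna10 (120), Scarna6 (96.0) and Scarna17 (13.9), of which Scarna10 is a mixed C/D and H/ACA guide.

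Hosts were found in the tables for 95 of the 99 RNAs, in 74 distinct genes. Ribosomal protein genes held 28 of them, and Snhg genes and Gas5 held 14. Per length, 9 of 54 RNAs with over 60 counts stood above their host. None of the 21 in ribosomal protein genes did so: their median was 17.0 RPKM against a host median of 1225 RPKM, a median log2 ratio of -6.45. Of the 12 in Snhg genes and Gas5, 6 stood above the host, with a median log2 ratio of 0.20. The rows are short beside 50-base reads, with medians of 68 bases for C/D and 120.5 for H/ACA RNAs. How far their RPKM compares with that of long host transcripts was not tested, so these ratios are no measure of relative abundance. Snora78 stood furthest above its host, at a mean of 317 RPKM against 1.00 for Snhg9, followed by Scarna13 with 256 against 2.82 for Snhg10. Snhg9 had only 49 counts in total, under the limit of 60, and the row of Snora78 spanned 157 bases against 128 annotated.

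The next question was how far the dishes of a condition differed. Counts per 1000000 counts of the library (CPM) were summed over each class. The H/ACA sum was 276 and 356 CPM in DMSO dishes 1 and 2, 296 and 262 CPM in those of 25 nM RA, and 270 and 290 CPM in those of 1 µM RA. The C/D sum was 196 and 243 in DMSO, 210 and 156 at 25 nM, and 223 and 200 at 1 µM. The Cajal body sum was 137 and 165 in DMSO, 148 and 133 at 25 nM, and 144 and 152 at 1 µM. In each class DMSO dish 2 was the highest and 25 nM dish 2 the lowest of the 6 samples. The condition means were 316 ± 56.9 (SD, n = 2 dishes here and below), 279 ± 24.1 and 280 ± 13.6 CPM for H/ACA RNAs, 220 ± 33.0, 183 ± 38.3 and 211 ± 15.9 CPM for C/D RNAs, and 151 ± 19.98, 141 ± 10.3 and 148 ± 5.57 CPM for Cajal body RNAs, in the order DMSO, 25 nM and 1 µM. In all 3 classes the dishes of the conditions overlapped, so no class sum differed between conditions beyond its dishes. With 2 dishes against 2 an exact permutation test cannot go below p = 0.333, and none was run.

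**Figure D2:**
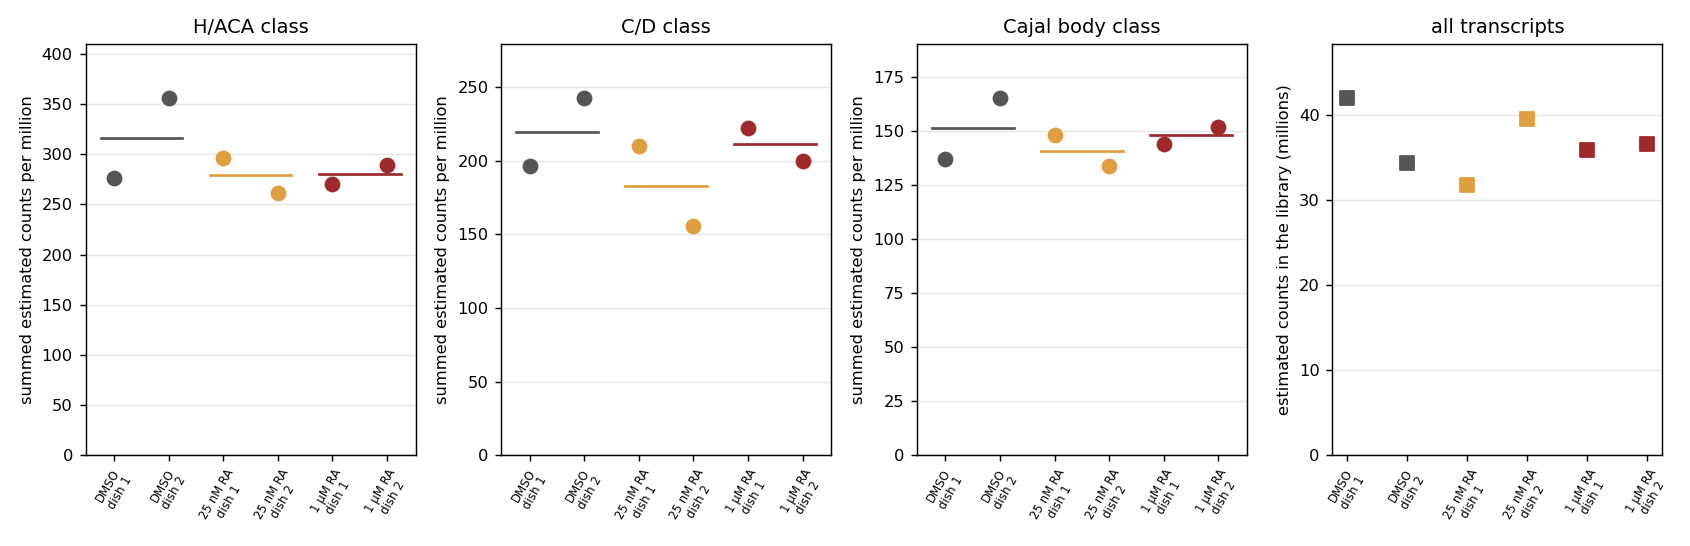
Summed CPM of the H/ACA, C/D and Cajal body RNAs in each of the 6 samples, with the condition mean as a line, and the estimated counts of each library. DMSO dish 2 is highest and 25 nM dish 2 lowest in all 3 classes, and those libraries held 34341789 and 39498520 counts.

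The summed raw counts of the 99 RNAs differed less than the library sizes did. They were 25613 and 26266 in DMSO, 20767 and 21766 at 25 nM, and 22880 and 23473 at 1 µM, while the libraries held 42029348 and 34341789, 31753556 and 39498520, and 35923229 and 36589558 counts. In DMSO and at 25 nM the dish with the larger library thus had the lower CPM of these RNAs, and at 1 µM the libraries and the sums were both close. The part of library size in the dish difference was not tested.

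Dish differences were expressed per RNA as the log2 ratio of dish 2 to dish 1, scaled by TMM (trimmed mean of M-values) library sizes with 0.5 counts added. Over the 57 RNAs with over 60 counts the median absolute difference was 0.32 in DMSO, 0.38 at 25 nM and 0.29 at 1 µM. Over all 21410 transcripts with over 60 counts it was 0.12, 0.13 and 0.14, and over their 73 host genes 0.038, 0.037 and 0.068. A difference over 0.5 was seen for 22, 21 and 20 of the 57 RNAs (38.6%, 36.8% and 35.1%), against 15.6%, 16.6% and 17.3% of all transcripts. The difference exceeded sampling noise (chi-square above 3.84) for 28, 25 and 22 RNAs (49.1%, 43.9% and 38.6%), against 31.8%, 32.5% and 36.2% of all transcripts. It also did so for 32, 30 and 44 of the 73 host genes (43.8%, 41.1% and 60.3%), despite their smaller log2 differences. Other short transcripts also differed between dishes: for the 22 rows under 150 bases that are no snoRNA or scaRNA, the medians were 0.28, 0.35 and 0.40. The difference between these sets was not tested.

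The dish differences had a direction. In DMSO, 45 of the 57 RNAs were higher in dish 2 (median log2 ratio 0.32), and at 25 nM 45 of the 57 were lower in dish 2 (median -0.33). At 1 µM, 31 were higher and 26 lower (median 0.064). Snora24, with counts in DMSO dish 2 alone, is among the 45 in both DMSO and 25 nM. The medians of all transcripts were within 0.003 of 0, and those of the host genes were 0.013, 0.0080 and -0.0091. By class, the median in DMSO was 0.44 for H/ACA, 0.25 for C/D and 0.23 for Cajal body RNAs, and at 25 nM it was -0.37, -0.41 and -0.11. The rows under 150 bases of other genes had medians of 0.14, -0.17 and 0.010, on the same side as the snoRNAs and scaRNAs in each condition.

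**Figure D3:**
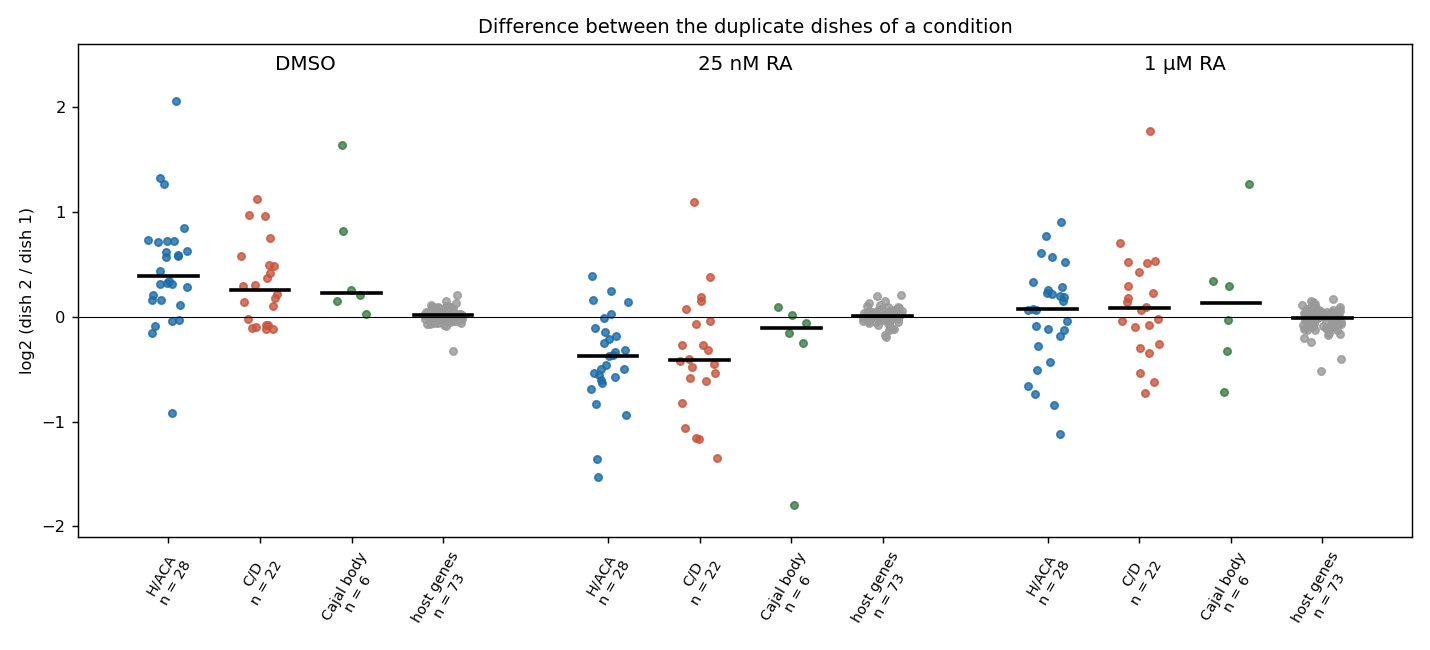
Log2 ratio of dish 2 to dish 1 for each RNA with over 60 counts, by condition and class, beside the host genes; bars are medians, and Snora24 (with counts in DMSO dish 2 alone) is left out. The snoRNAs and scaRNAs lie mostly above 0 in DMSO and below 0 at 25 nM, while the 73 host genes lie close to 0 in every condition.

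Most RNAs carried both shifts. Of the 57 RNAs, 39 (68.4%) were both higher in DMSO dish 2 than in dish 1 and lower in 25 nM dish 2 than in dish 1, against 26.5% of all transcripts with over 60 counts. The 39 include Snora24. DMSO dish 2 held the highest of the 6 values for 32 RNAs (56.1%, all transcripts 19.4%), and 25 nM dish 2 held the lowest for 27. Across 56 RNAs (Snora24 left out) the dish ratio in DMSO had a Pearson r of -0.52 with that at 25 nM and 0.28 with that at 1 µM, and 25 nM and 1 µM had -0.38; the RNAs share the libraries, so these are descriptions. The dish ratio of an RNA and of its host had r = -0.23 in DMSO, 0.058 at 25 nM and 0.12 at 1 µM over 53 pairs.

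**Figure D4:**
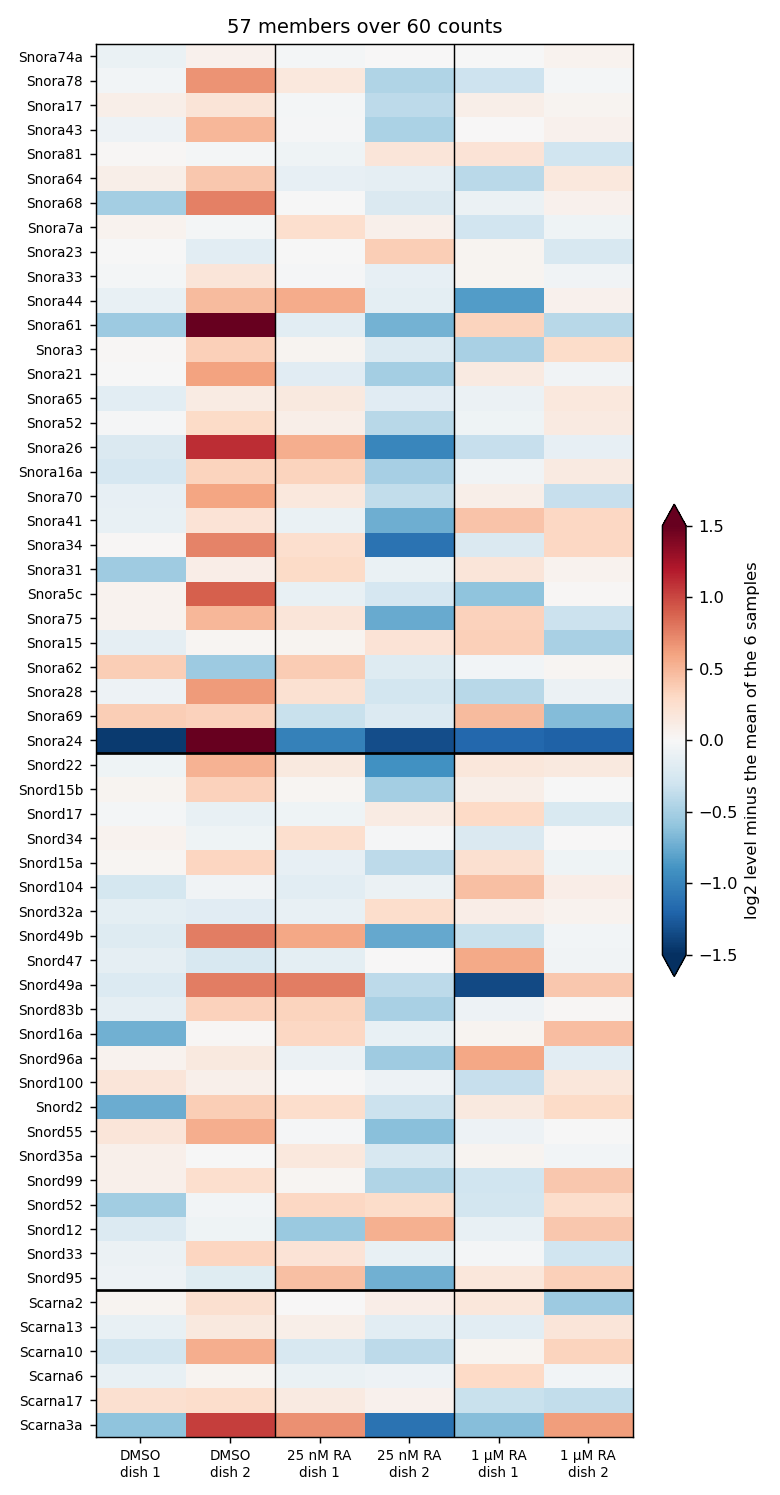
Log2 level of each of the 57 RNAs with over 60 counts in each sample, minus its mean over the 6 samples, ordered by class and then by mean RPKM (black lines separate classes and conditions, and the colours end at 1.5 to either side). The column of DMSO dish 2 is mostly above the mean, holding the highest value of 32 RNAs, and that of 25 nM dish 2 mostly below it, holding the lowest value of 27.

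Single RNAs ranged from steady to widely split. Snora74a, the most abundant, had 562 and 623 RPKM in DMSO, 591 and 596 at 25 nM and 596 and 628 at 1 µM, so the conditions overlapped. Scarna17 had 16.3 and 16.4 RPKM in DMSO, 15.1 and 14.3 at 25 nM and 10.8 and 10.6 at 1 µM; its dishes lay close together at counts of 29 to 52. Snord17 had 182 and 171 RPKM, 179 and 201, and 228 and 159, and its widest split was at 1 µM. Snora81, which lies in an intron of the translation factor gene Eif4a2, had 41.0 and 39.4, 38.8 and 45.6, and 46.4 and 33.0 RPKM, also with the widest split at 1 µM.

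Snora61 had the widest split of the H/ACA RNAs apart from Snora24. It had 16.6 and 69.0 RPKM in DMSO, 21.8 and 14.7 at 25 nM and 30.5 and 18.3 at 1 µM, from 44 to 181 counts a sample. DMSO dish 2 alone stood apart, at 4.16 times dish 1, while its host Snhg12 had 51.6 and 50.4 RPKM in the same dishes. The 3 other RNAs of Snhg12, Snora16a, Snora44 and Snord99, had DMSO log2 ratios of 0.59, 0.58 and 0.18, beside 2.06 for Snora61. At 25 nM all 4 were lower in dish 2, with log2 ratios from -0.48 (Snord99) to -0.83 (Snora16a).

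Snora24 had 79.2 estimated counts in DMSO dish 2 and at most 0.00014 RPKM in each other sample. It lies within Snhg8, and all 81 of its 50-base windows occur in Snhg8 transcripts. Snhg8 had 1990 and 1877 estimated counts in the DMSO dishes. The part of this overlap in the value was not tested, and the filter on low counts left Snora24 out of the main test. Snora26, all 72 of whose windows occur in transcripts of its host Dancr, had 12.9 and 32 RPKM in DMSO, 21.98 and 7.51 at 25 nM and 11.7 and 13.8 at 1 µM. Its highest value was again DMSO dish 2 and its lowest 25 nM dish 2.

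Snord22 had 446 and 663 RPKM in DMSO, 521 and 246 at 25 nM and 523 and 520 at 1 µM. Its 1 µM dishes lay close together and its 25 nM dishes differed by a log2 ratio of -1.06, while Snhg1 had 129 and 128 RPKM in those 25 nM dishes. Snord49a and Snord49b, C/D RNAs of the noncoding host 2410006H16Rik, were split in the same direction in every condition: Snord49a by 0.97, -1.16 and 1.77, and Snord49b by 0.96, -1.35 and 0.30. Scarna3a had the widest splits of the Cajal body RNAs, with 2.30 and 7.27 RPKM in DMSO, 5.73 and 1.58 at 25 nM and 2.21 and 5.50 at 1 µM. Scarna2 had 268 and 307, 263 and 278, and 293 and 180 RPKM, so that 1 µM dish 2 alone was low. Snord95, near the threshold, had 3.43 and 3.13, 4.97 and 2.13, and 4.07 and 4.68 RPKM at 7 to 14 counts a sample.

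The response to 25 nM RA was then examined for each RNA. Counts were tested across all transcripts with edgeR's likelihood ratio test, the 3 conditions sharing 1 estimate of the spread, and an RNA was called at a Benjamini-Hochberg adjusted p under 0.1. Of the 60 snoRNAs and scaRNAs that passed the filter on low counts, 0 were called at 25 nM, against 3.69% of the 22074 transcripts tested. With p under 0.05 before adjustment there were 3, all lower (background 9.52%). The quasi-likelihood test of edgeR also called 0 (background 1.23%) and had 2 before adjustment (9.67%), and DESeq2 called 0 (1.35%) and had 1 (4.77%). The median log2 fold change of the 60 was -0.15, with 39 below 0, against -0.0013 for all transcripts. It was -0.34 for H/ACA, -0.017 for C/D and -0.12 for Cajal body RNAs. The median SE was 0.41, so that the 95% interval of a typical RNA reached 0.80 to either side of its log2 fold change, and smaller differences were not detectable for most of them. DMSO dish 2 was high and 25 nM dish 2 low for most of these RNAs, and the part of those libraries in the median was not tested.

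The 3 RNAs that passed before adjustment were Snord15b, Snord15a and Snora21, an H/ACA guide for large-subunit rRNA; Snora21, Snora41, Snord8, Snord104, Snord16a and Snora5c are named because of their values. Snord15b had 200 and 246 RPKM in DMSO and 200 and 136 at 25 nM (223 ± 32.1 and 168 ± 45.2), and its log2 fold change was -0.42 ± 0.20 (SE) at an adjusted p of 0.42 by edgeR's likelihood ratio test. The higher 25 nM dish was just under the lower DMSO dish. Snord15a had 54.4 and 66.1 against 49.5 and 40.5 RPKM, and its log2 fold change was -0.43 ± 0.20 (edgeR, adjusted p = 0.44). Snora21 had 17.7 and 27.0 against 15.8 and 12.4 RPKM, and its log2 fold change was -0.67 ± 0.33 (edgeR, adjusted p = 0.51). All 3 were lower in both 25 nM dishes than in both DMSO dishes, and all 3 had their highest DMSO value in dish 2 and their lowest value in 25 nM dish 2. Their hosts Rps3 and Rpl23 stood at 669 and 709, and 785 and 786 RPKM in DMSO, and at 710 and 683, and 819 and 806 RPKM at 25 nM. With 1 µM RA the values were 206 and 194 RPKM for Snord15b, 62.7 and 51.5 for Snord15a and 19.4 and 17.2 for Snora21. Each of these pairs overlapped the DMSO dishes.

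Without overlap between the dishes, 13 of the 57 RNAs with over 60 counts were lower at 25 nM than in DMSO (22.8%, all transcripts 20.7%) and 4 were higher (7.02%, all transcripts 20.4%). The share that was lower was near the background. The 4 higher ones were Snora15, Snora7a, Snord32a and Snord52, with log2 fold changes of 0.18, 0.15, 0.25 and 0.58 and SEs of 0.46, 0.21, 0.27 and 0.51. Snora17 and Snora43, which share Snhg7, had log2 fold changes of -0.34 ± 0.18 and -0.47 ± 0.27, while Snhg7 had 19.3 and 18.4 RPKM in DMSO and 19.3 and 17.4 at 25 nM.

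The number of calls depended on how the spread was estimated. Each of these RNAs has 1 row, so summing counts per gene left its counts as they were, but lowered the biological coefficient of variation shared by all features from 0.131 to 0.0351, and the median of these RNAs from 0.243 to 0.0852. In that fit 8 of the 60 were called at 25 nM, all lower (13.3% of them). Of all 15143 genes, 3.55% were called lower and 8.05% either way. The 8 were Scarna10, Snora17, Snora21, Snora43, Snora61, Snora78, Snord15a and Snord15b, with adjusted p from 0.0112 to 0.0944 by edgeR's likelihood ratio test. These calls depended on single dishes: none of the 8 was called without DMSO dish 2 or without 25 nM dish 2. In the fit over transcripts, Snord22 had a log2 fold change of -0.54 with all dishes and -1.17 without 25 nM dish 1. Fits without a DMSO or 25 nM dish leave 1 dish in that condition. The share of all features called in them is not given here.

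With 1 µM RA, 0 of the 60 were called by edgeR's likelihood ratio test over transcripts (background 8.3%), and before adjustment 1 had p under 0.05 (16%). The quasi-likelihood test of edgeR called 0 (3.95%) and had 1 before adjustment (16.3%), and DESeq2 called 0 (3.3%) and had 0 (8.7%). The median log2 fold change was -0.099, with 42 of 60 below 0, and it was -0.22 for H/ACA, -0.074 for C/D and -0.15 for Cajal body RNAs. Dishes did not overlap for 7 of 57 RNAs that were lower (12.3%, all transcripts 24.2%) and 6 that were higher (10.53%, all transcripts 23.7%), both shares being under the background.

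The RNA that passed before adjustment at 1 µM in the likelihood ratio test was Snord8, at few counts. It had 3 and 5 counts in DMSO, 6 and 11 at 25 nM and 11 and 10 at 1 µM. In RPKM these were 0.588 and 1.19, 1.58 and 2.30, and 2.56 and 2.30. All 4 dishes with RA lay above both DMSO dishes, and the log2 fold change was 1.44 ± 0.75 (edgeR, adjusted p = 0.30). The RNA that passed before adjustment in the quasi-likelihood test was a different RNA, Snord104. Snord104 had 44.2 and 50.8 RPKM in DMSO, 47.7 and 49.6 at 25 nM and 72.0 and 57.3 at 1 µM. Both 1 µM dishes lay above the other 4 samples, and the log2 fold change against DMSO was 0.44 ± 0.23 (edgeR, adjusted p = 0.35). Snora78 had 298 and 485 RPKM in DMSO, 344 and 223 at 25 nM and 246 and 303 at 1 µM. Both treatments overlapped DMSO, and the log2 fold change was -0.52 ± 0.29 at 1 µM and -0.47 ± 0.29 at 25 nM. For Scarna17, both dishes at 1 µM (10.8 and 10.6 RPKM) lay under the other 4 samples, and the log2 fold change was -0.61 ± 0.36 (edgeR, adjusted p = 0.42).

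In the fit summed per gene 6 were called at 1 µM (10% of the 60, all genes 19.7%): Snord104, Snord16a and Snord8 higher, and Scarna17, Snora5c and Snora78 lower. Which RNAs were called also depended on the dish left out. Summed per gene, Scarna10 had a log2 fold change of -0.35 without DMSO dish 1 and 0.47 without DMSO dish 2. Snora68 had -0.77 and 0.51 in the same fits. The share of all features called without 1 dish is not given here.

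**Figure D5:**
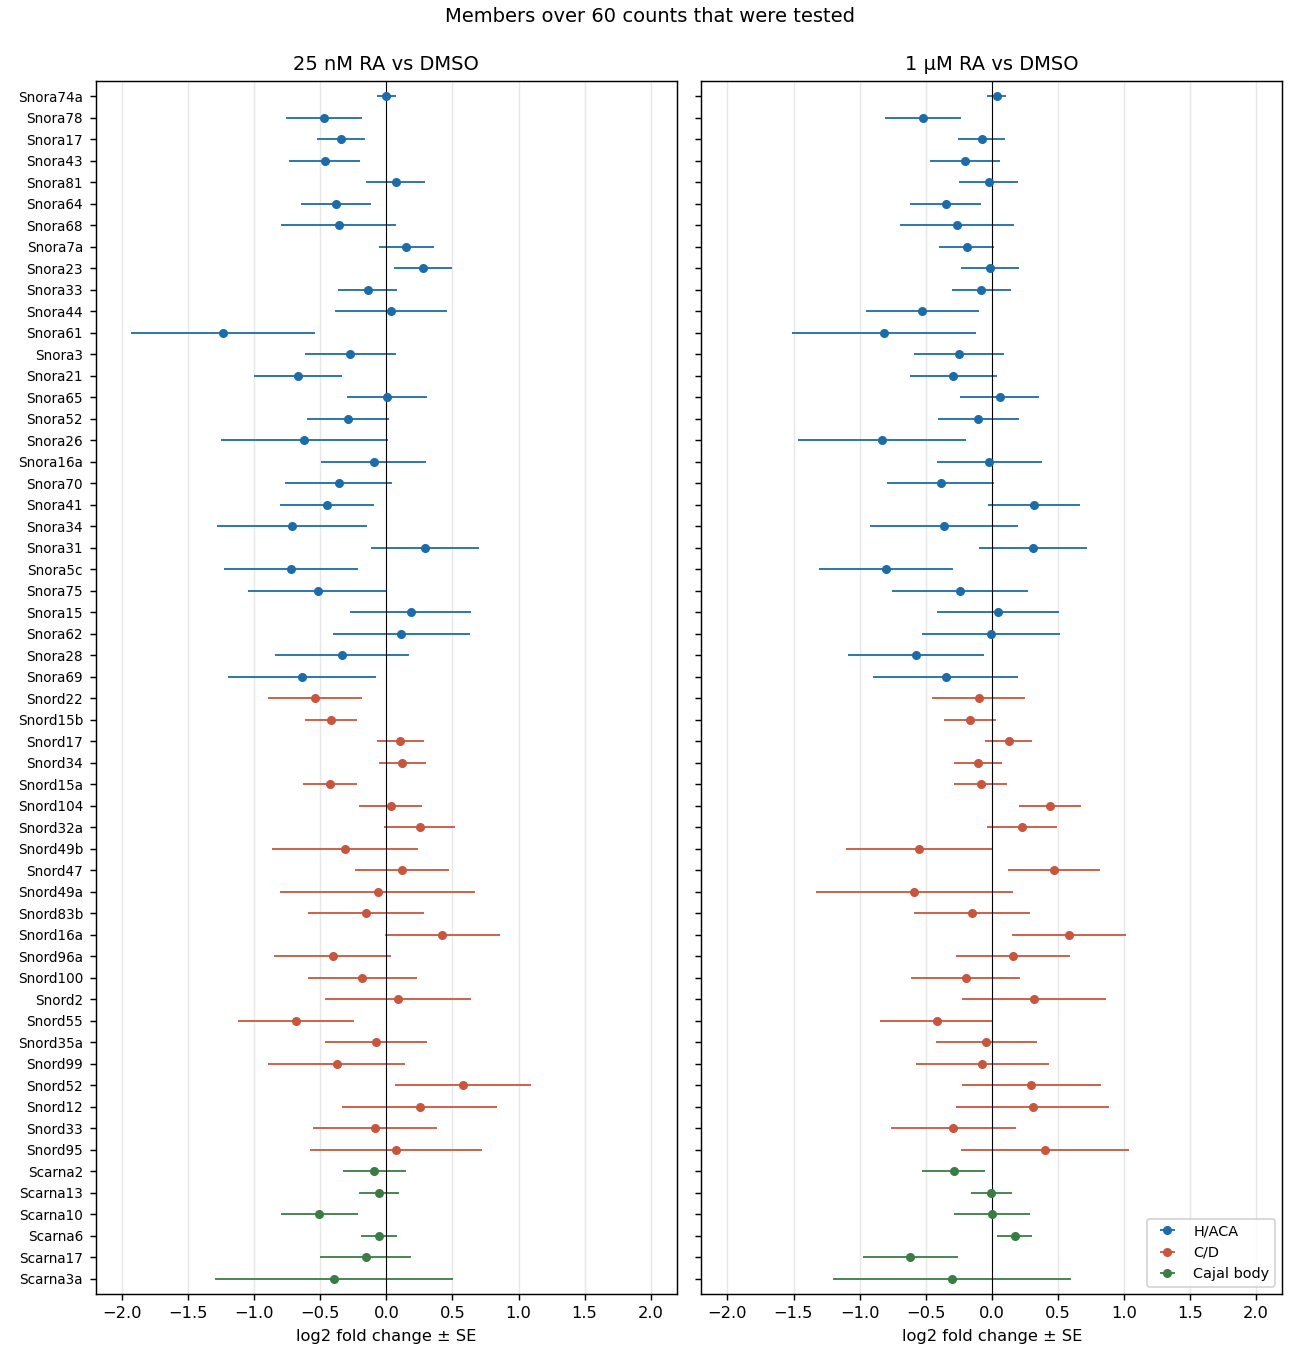
Log2 fold change ± SE from edgeR for the 56 RNAs with over 60 counts that were tested, at 25 nM (left) and 1 µM (right) against the same DMSO dishes, ordered by class and mean RPKM. Most bars cross or come near 0, and none of the RNAs was called at an adjusted p under 0.1 in this fit.

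The doses were compared directly. Between 1 µM and 25 nM RA, 0 of the 60 were called by edgeR's likelihood ratio test (background 1.8%), and before adjustment 1 had p under 0.05 (8.61%). The quasi-likelihood test of edgeR called 0 (0.00906%) and had 1 (8.8%), and DESeq2 called 0 (0.386%) and had 0 (4.19%). Dishes did not overlap for 8 of 57 RNAs that were higher at 1 µM (all transcripts 19.6%) and 3 that were lower (20.2%). The median log2 fold change was 0.046, with 37 of 60 above 0. Snora41, in Eef1b2, had 12.5 and 15.5 RPKM in DMSO, 12.7 and 8.05 at 25 nM and 18.1 and 16.9 at 1 µM. Both 1 µM dishes lay above the other 4 samples, and the log2 fold change between the doses was 0.77 ± 0.36 (edgeR, adjusted p = 0.47). Summed per gene, 2 were called (3.33% of the 60, all genes 3.41%), Snora41 and Snord104, both higher at 1 µM. Here too the calls changed with the dish left out, and the share of all features called in such fits is not given. Over transcripts, the log2 fold change of Snord22 between the doses was 0.44 with all dishes and 1.07 without 25 nM dish 1.

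The proteins that form and mature these RNA-protein particles were listed beside them. Of 30 listed core, assembly and Cajal body factors, 29 were in the tables. At 25 nM none was called over transcripts, and summed per gene 1 was higher (Ncl, log2 fold change 0.19). At 1 µM Nop10, a core protein of H/ACA particles, rose by 0.18 ± 0.052 on the log2 scale (edgeR, adjusted p = 0.017), from 114 and 115 RPKM in DMSO (115 ± 0.871) to 130 ± 2.55 RPKM. In addition, 1 transcript of the nucleolar protein gene Npm1 rose by 0.60 ± 0.23 (edgeR, adjusted p = 0.099). Npm1 summed per gene changed by 0.13 and was not called (edgeR, adjusted p = 0.14). Summed per gene, 6 of the 29 were higher and 1, Naf1, lower, and these 7 (24.1%) stand beside 19.7% of all genes called in that fit. Between the doses none was called in either fit. Of the other core proteins, Fbl, the methyltransferase of C/D particles, had 164 ± 1.40, 176 ± 2.19 and 171 ± 0.648 RPKM in DMSO, 25 nM and 1 µM, and Dkc1, the pseudouridine synthase of H/ACA particles, had 90.2 ± 1.47, 90.8 ± 0.588 and 93.4 ± 1.09 RPKM. Neither was called in either fit, and neither were Nop56, Nhp2 and Gar1. The C/D core protein Nop58 was not called over transcripts, but summed per gene it was called higher at 1 µM, by 0.13 on the log2 scale (edgeR, adjusted p = 0.073).

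Of the 74 host genes (109 transcripts tested), 1 had a transcript called higher at 25 nM (Kansl2, log2 fold change 0.28 ± 0.089). At 1 µM 3 were higher (Gnl3, Snx5 and Cct6a) and 2 lower (Chd8 and Srcap). Between the doses Kansl2 (-0.28 ± 0.089) and Srcap (-0.42 ± 0.075) were lower at 1 µM, and summed per gene only Srcap was called. Of all transcripts, 3.69%, 8.3% and 1.8% were called in the 3 comparisons. Summed per gene, 12 of the 74 (16.2%, all genes 19.7%) were called at 1 µM: Gnl3, Snx5, Cct6a, Nop58, Ncl, Rps12, Tpt1, Rpl17 and Rplp2 higher, and Chd8, Srcap and Zbed3 lower. At 25 nM that fit called 2 of them (2.7%, all genes 8.05%), Ncl higher and Srcap lower, and not Kansl2. At 1 µM Srcap, a chromatin remodeler and the host of Snora30, fell by 0.58 on the log2 scale over transcripts (SE 0.074, adjusted p = 1.50e-12, edgeR). Its log2 fold change at 25 nM in the same fit was -0.16 ± 0.073 (edgeR, adjusted p = 0.42). The 16 noncoding hosts listed by symbol in the tables, among them Gas5 and Snhg1, had 0 calls in each comparison, and summed per gene 1 (Snhg11) was lower at 1 µM. Snx5, the host of Snord17, had a log2 fold change of 0.18 ± 0.057 at 1 µM in 1 transcript, while Snord17 itself had 0.13 ± 0.18. Chd8, the host of Snord8, had -0.16 ± 0.053 at 1 µM, opposite in sign to Snord8. Of 28 other short noncoding RNAs and microRNA host genes by symbol that were tested, 0 were called at 25 nM (all transcripts 3.69%). At 1 µM Mir17hg was higher and Mir1949 and Mir6236 lower (8.3%), and between the doses Mir17hg was higher and Mir6236 lower (1.8%). Summed per gene, 3 of the 28 were called at 25 nM (10.7%, all genes 8.05%) and 7 at 1 µM (25%, all genes 19.7%). Between the doses that fit called 3 (10.7%, all genes 3.41%).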

How the data were processed

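RNA-seq of 6 dishes of mouse NMPs was used. Per the labels and the methods, the authors aligned 50-base single-end reads of rRNA-depleted stranded total RNA to mm10 (TopHat2 2.0.13 and Bowtie2 2.2.5.0; FastQC 0.11 and Partek 6.6 are named in the submitters' processing notes), estimated counts per RefSeq transcript by expectation-maximization, and deposited these estimated counts. The authors also deposited RPKM values per transcript, which are used here for levels and are not tested. Whether counting used strand is not given in the sources used here. The methods call the duplicate dishes technical replicates.

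Estimated counts were rounded, scaled by TMM and filtered with filterByExpr, and all 22074 transcripts that passed were tested in edgeR 4.0.16 (R 4.3.3; likelihood ratio test, condition as the only term, 6 samples, Benjamini-Hochberg adjustment, calls at adjusted p under 0.1). The fitting code was tested on simulated data. Library totals ran from 31753556 to 42029348 counts, so precision is set by the counts of each RNA. Dish ratios used TMM-scaled counts with 0.5 added. GENCODE M21 gave positions, hosts and sequences; 98 RNAs matched by symbol and 1 by position.

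Named RNAs are, in each class, the 5 with the highest mean RPKM and the 3 with the widest dish difference among those over 60 counts, any RNA called, and all Cajal body RNAs over 60 counts; others are named for their values. The members and lists were chosen with earlier results of these data known. Alternatives were the quasi-likelihood test, DESeq2 1.42.0, other scalings and filters, counts summed per gene, a replicate block and leaving out each sample. The combinations of counts summed per gene with other settings were chosen after seeing the data.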

Additional observations from a re-analysis of the deposited data

How the results depend on the processing

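The count of RNAs with over 60 counts stayed within 1.5 times under thresholds of 30 (69) and 120 (53), and the median dish differences moved by less than that under another pseudocount, total counts and a threshold of 300. Class sums fell without the most abundant RNA: to 172, 136 and 134 CPM for H/ACA, 134, 124 and 132 for C/D, and 63.7, 57.1 and 61.9 for Cajal body RNAs, in DMSO, 25 nM and 1 µM. The count of RNAs called was 0 in all 3 comparisons with the quasi-likelihood test, DESeq2, DESeq2 size factors, total counts and the replicate block. Without a filter, and with only rows over 60 counts, it was 1 at 1 µM against DMSO (Snora24). Leaving out 1 sample changed which RNAs were called, and the share of all transcripts called in those fits is not given.

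Summing counts per gene gave 8, 6 and 2 calls at 25 nM, at 1 µM and between the doses. These were 13.3%, 10% and 3.33% of the 60, beside 8.05%, 19.7% and 3.41% of all genes. Of that fit, chosen after seeing the data, the quasi-likelihood version gave 4, 4 and 1 and the replicate block version 9, 7 and 2. Leaving out 1 sample in it gave 0 to 16 at 25 nM (16, 0, 15, 1, 11 and 11 without DMSO dish 1, DMSO dish 2, 25 nM dish 1, 25 nM dish 2, 1 µM dish 1 and 1 µM dish 2), 4 to 14 at 1 µM (14, 6, 8, 9, 4 and 11 in that order) and 1 to 10 between the doses (2, 2, 6, 1, 3 and 10). The share of all genes called is not given for the quasi-likelihood, replicate block and left-out-sample versions. Their counts thus cannot be set against a background and show only that the calls depended on the fit. Each fit without a sample also leaves 1 dish in that condition. The cause of the differing counts was not tested. Of 3948 recomputed fold changes of the tested RNAs, 3 reversed with a call, all summed per gene: at 1 µM against DMSO, Scarna10 was -0.35 without DMSO dish 1 and Snora68 was 0.51 without DMSO dish 2 (-0.77 without DMSO dish 1), and between the doses Snord17 was -0.27 without 1 µM dish 1. A further 302 changed sign without a call in either fit. Over 22074 transcripts, dishes of the same number did not deviate together (r = -0.015, 0.022 and -0.026). Over the 60 snoRNAs and scaRNAs tested, r was -0.29 for DMSO with 25 nM, 0.26 for DMSO with 1 µM and -0.34 for 25 nM with 1 µM.

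Depth limits what can be seen: 42 of the 99 RNAs had 60 counts or fewer.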
